A study of Mus musculus with 12 samples.

Results

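Expression of 10 genes of the presomitic and paraxial mesoderm, Msgn1, Tbx6, Mesp1, Mesp2, Ripply2, Meox1, Foxc1, Pcdh8, Aplnr and Rspo3, was followed by RNA-seq in mouse embryonic stem cells differentiated for 72 h. The genes were chosen by name, for their known place in this tissue and with earlier results of these data known, out of 24736 genes quantified. The 12 libraries fell into 4 groups of 3, and all cultures received FGF at 10 ng/ml together with LGK974 at 5 µM, which blocks the release of WNT ligands. EpiLC (epiblast-like cells) were wild type and received nothing else. CEpiLC (caudal epiblast-like cells) were wild type and were exposed from day 2 to day 3 to CHIR99021, a GSK3 inhibitor that activates the WNT pathway inside the cell. SOX2-OFF and SOX2-ON cells were exposed to CHIR99021 over the same interval and came from the SOX2 TetON line, labelled Sox2-/-, in which a Sox2 transgene placed in the Hprt locus depends on doxycycline. Doxycycline was withdrawn from SOX2-OFF and kept at 1 µg/ml in SOX2-ON. The wild-type cells were the HM1 TetON parent of that line, and the TetON cells were derived from picked clones. No TetON culture without CHIR99021 was analysed here, so that the line and SOX2 cannot be told apart in comparisons of TetON with wild-type cells, and doxycycline differed along with SOX2 between SOX2-ON and SOX2-OFF.

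The presomitic mesoderm is the tissue at the tail end of the embryo from which somites are cut off in sequence. Cells leave the primitive streak and caudal epiblast under WNT and FGF signals, switch on Msgn1 and Tbx6, and are later divided by an oscillator built on Notch signalling, at whose front Mesp2 and Ripply2 set the next boundary. Somites then express Meox1 and go on to form vertebrae, skeletal muscle and dermis. SOX2 is the SOXB1 factor of epiblast and neural cells, and in the embryo its loss and the gain of Tbx6 accompany the choice of mesoderm over neural tissue.

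Library totals ran from 10408252 expected counts in CEpiLC replicate 3 to 27337740. Sox2 itself was at 137 ± 29.7 TPM (RSEM's transcript level, scaled for transcript length and library depth; mean ± SD, n = 3) in EpiLC and 10.4 ± 3.01 TPM in CEpiLC, and in the TetON line at 16.5 ± 4.48 TPM without and 187 ± 24.0 TPM with doxycycline. Reads of the transgene count towards the same gene, so that these values do not check the knockout. Markers of extraembryonic endoderm separated the lines: the summed level of the 8 genes listed was 256 to 300.1 TPM in SOX2-OFF and 105 to 309 in SOX2-ON, against 5.81 to 7.31 in CEpiLC and 9.24 to 12.6 in EpiLC, with Sox17, Gata6, Amn, Cubn and Dab2 above 6 TPM in all TetON libraries and Afp and Apoa1 below 1 TPM in all 12 libraries. Markers of fibroblast feeders, on which the stem cells had been grown, had a lower sum over 9 genes in TetON libraries (23.4 to 45.7 TPM) than in wild-type ones (60.5 to 125 TPM), but Thy1 and Acta2 made up that difference. The sum of the other 7 genes, chosen after the values were seen, overlapped, at 14.7 to 31.4 TPM in TetON and 16.1 to 41.9 TPM in wild-type libraries. Singly, Thy1, Acta2 and Pdgfrb were called lower in both TetON groups against CEpiLC, Dcn was called higher in both, and Lum was called higher in SOX2-ON. The part of these markers in the results below was not tested.

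Start sites of 7 of the 10 genes were found in the promoter table of RefSeq on GRCm38.p6. The 250 bases before the start are shown for Msgn1 and Tbx6, whose levels followed each other most closely among the transcription factors, and for Mesp1 and Mesp2, neighbours whose levels did not follow each other. Each is written 5′ to 3′ on the strand of its gene, and capitals mark exact matches, on either strand, to the motifs named after the sequences.
Msgn1, chr12:11208949-11209198, minus strand: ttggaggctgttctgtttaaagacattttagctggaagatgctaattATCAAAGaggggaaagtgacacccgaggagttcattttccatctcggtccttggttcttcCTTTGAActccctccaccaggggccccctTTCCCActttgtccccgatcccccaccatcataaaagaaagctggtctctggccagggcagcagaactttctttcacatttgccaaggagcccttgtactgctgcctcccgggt
Tbx6, chr7:126781233-126781482, plus strand: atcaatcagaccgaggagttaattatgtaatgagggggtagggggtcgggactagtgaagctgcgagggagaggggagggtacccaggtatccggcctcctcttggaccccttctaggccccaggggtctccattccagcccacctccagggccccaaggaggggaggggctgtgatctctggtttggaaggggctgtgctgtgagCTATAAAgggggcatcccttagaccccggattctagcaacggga
Mesp1, chr7:79793591-79793840, minus strand: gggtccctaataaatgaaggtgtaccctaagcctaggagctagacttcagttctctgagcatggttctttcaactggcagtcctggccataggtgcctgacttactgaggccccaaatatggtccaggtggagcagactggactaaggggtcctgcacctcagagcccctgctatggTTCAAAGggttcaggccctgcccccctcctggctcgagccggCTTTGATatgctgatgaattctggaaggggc
Mesp2, chr7:79810477-79810726, plus strand: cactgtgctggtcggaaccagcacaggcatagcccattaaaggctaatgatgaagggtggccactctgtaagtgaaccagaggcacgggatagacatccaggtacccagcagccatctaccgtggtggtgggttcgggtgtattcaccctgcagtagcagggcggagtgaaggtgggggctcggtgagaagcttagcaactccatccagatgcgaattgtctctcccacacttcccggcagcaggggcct
The motifs searched were CTTTGAA and CTTTGAT (bound by TCF/LEF factors, the nuclear end of the WNT pathway), AGGTGTG (T-box factors), ACAATG (SOX factors), TTTATNG (CDX factors) and TGGGAA (RBPJ, the nuclear end of the Notch pathway). Msgn1 and Mesp1 each held both TCF/LEF motifs. Among 32851 promoters of the same length, 4.46% held the first of these and 3.21% the second, and the other 5 promoters found held neither. The RBPJ motif was in Msgn1 alone (21.6% of all promoters), and the CDX motif was in Tbx6 and Pcdh8 (9.81% of all promoters), starting 44 and 31 bases before the start of the gene. Both of these matches read CTATAAA on the strand of the gene. Those letters also hold TATAAA, the TATA box of core promoters, so the match cannot tell a CDX motif from a TATA box. No SOX or T-box match was found in the 7 windows (10.7 and 5.1% of all promoters). The E-box CANNTG, left in lower case, was in Msgn1, Mesp1, Mesp2 and Ripply2, and in 66.2% of all promoters. Mesp2 thus had no capitals, and Mesp1, 17137 bp away, carried both TCF/LEF motifs. A match in these letters is a description of the window and not a bound site.

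Msgn1 (chr12:11208382-11208948) encodes a basic helix-loop-helix factor that drives cells from the streak into presomitic mesoderm. It was listed at 0 TPM, with 0 counts, in each of the 3 EpiLC libraries. In CEpiLC it was at 64.5, 95.0 and 364 TPM, and in SOX2-OFF at 95.9, 80.3 and 168.5 TPM. In SOX2-ON it was at 0.27, 1.49 and 0.91 TPM, from 1, 5 and 3 counts. CEpiLC and SOX2-OFF thus overlapped, and both lay above all EpiLC and SOX2-ON libraries. Against EpiLC, where it was at the floor (no library with more than 3 counts), Msgn1 was at least 198-fold higher in CEpiLC (adjusted p = 7.89e-05) and at least 133-fold higher in SOX2-OFF (adjusted p = 6.01e-05). Its log2 fold change was -7.58 ± 0.98 (SE) in SOX2-ON against CEpiLC (adjusted p = 5.69e-05) and -7.04 ± 1.00 against SOX2-OFF (adjusted p = 0.000344). Between SOX2-OFF and CEpiLC it did not pass the test (-0.55, adjusted p = 0.439). These and all adjusted p-values that follow come from edgeR's quasi-likelihood test fitted to all 12 libraries, with 0.05 as the threshold below which a gene is said to be called. Values after ± are SE for log2 fold changes, derived from the fold change and the F statistic of that test, and SD for TPM. In such bulk libraries, fewer cells that express a gene and less of its RNA per cell cannot be told apart.

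Tbx6 (chr7:126781483-126785548), a T-box factor that holds cells in the paraxial mesoderm fate, was at 0.41, 0.38 and 0.37 TPM in EpiLC. In CEpiLC it was at 10.9, 23.6 and 86.2 TPM, and in SOX2-OFF at 9.46, 10.3 and 18.9 TPM. In SOX2-ON it was at 0.26, 0.5 and 0.36 TPM, a range that overlapped EpiLC. Tbx6 rose in CEpiLC against EpiLC (log2 fold change 6.64 ± 0.85, adjusted p = 4.64e-05). It fell in SOX2-ON against CEpiLC (-6.73 ± 0.85, adjusted p = 2.22e-05) and against SOX2-OFF (-5.11 ± 0.90, adjusted p = 0.000916). In SOX2-OFF against CEpiLC it was called lower (-1.62 ± 0.56, adjusted p = 0.0287) although the groups overlapped. That call rested on CEpiLC replicate 3, without which the difference was -0.39 (adjusted p = 0.332). It was also lost without SOX2-OFF replicate 1 (-1.42, adjusted p = 0.0994) or replicate 2 (-1.46, adjusted p = 0.0953). With limma-voom the difference was -0.92 (adjusted p = 0.221). Nor did it pass with DESeq2 (adjusted p = 0.0512) or in a fit of the 6 libraries compared (adjusted p = 0.0908).

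**Figure D1:**
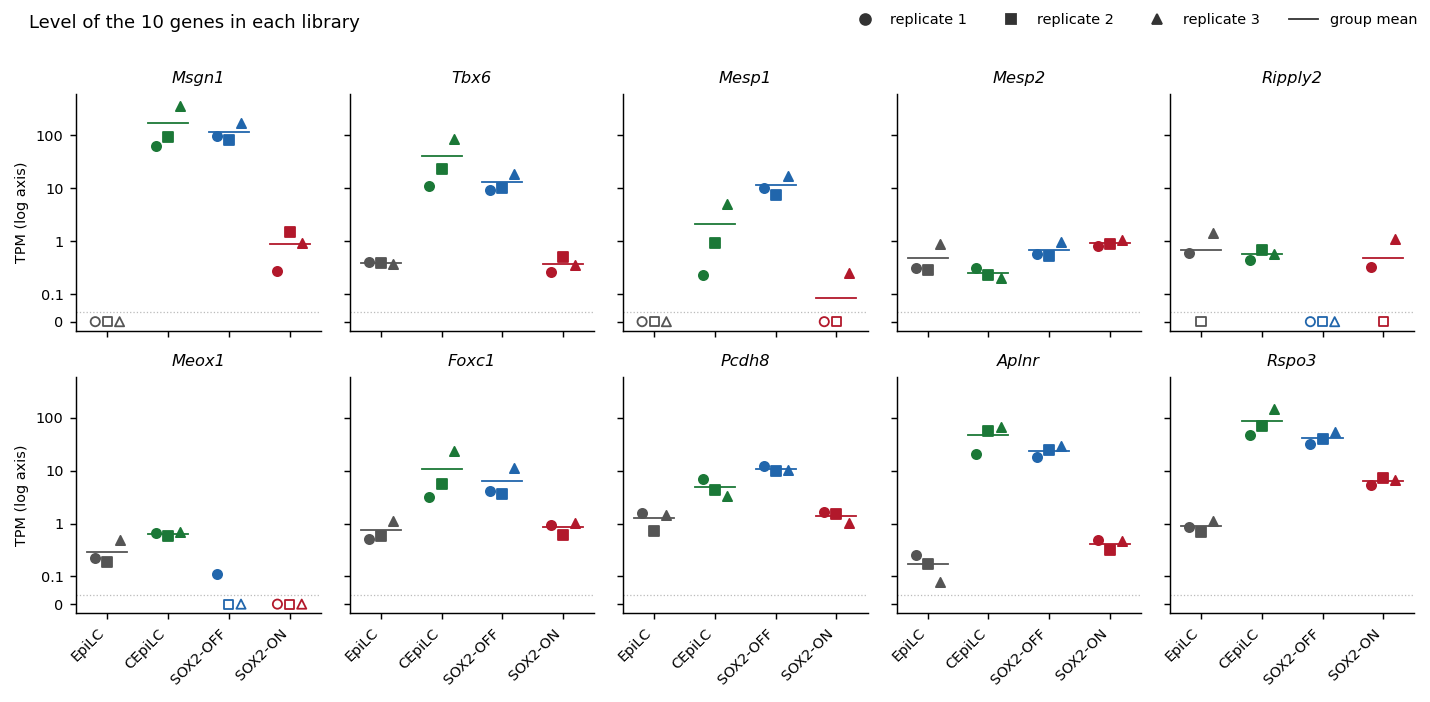
Level of each gene (TPM, log axis) in the 12 libraries, by group, with a symbol for each replicate and a line at the group mean (means below 0.05 are not drawn). Open symbols below the dotted line are values of 0, which a log axis cannot place. Msgn1, Tbx6, Aplnr, Rspo3 and Foxc1 are higher in CEpiLC and SOX2-OFF than in EpiLC and SOX2-ON. Rspo3 in SOX2-ON lies above EpiLC and below CEpiLC and SOX2-OFF. Mesp2, Ripply2 and Meox1 stay at 1.43 TPM or less in every library.

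Mesp1 (chr7:79792241-79793590) marks the earliest mesoderm to leave the streak, from which heart and head mesoderm arise, and is expressed again in presomitic mesoderm. It was listed at 0 in all EpiLC libraries and was at 0.23, 0.92 and 5.13 TPM in CEpiLC, from 3, 8 and 26 counts. In SOX2-OFF it was at 10.0, 7.37 and 17.2 TPM, and in SOX2-ON at 0, 0 and 0.25 TPM. SOX2-OFF therefore lay above every other library, and it was the group in which Mesp1 was highest. Mesp1 rose in SOX2-OFF against CEpiLC (log2 fold change 2.81 ± 0.75, adjusted p = 0.00924). It was at least 5.75-fold higher in CEpiLC than in EpiLC (adjusted p = 0.0228), a call lost without EpiLC replicate 1 or 2 (adjusted p = 0.0573 and 0.0570). This bound uses the mean of CEpiLC, most of which came from replicate 3. CEpiLC replicate 1 held 3 counts, the most that the floor allows. SOX2-OFF held 235 counts and SOX2-ON held 2, which makes it 138-fold higher in SOX2-OFF (95% exact interval 37.8 to 1145, of counting error only; adjusted p = 0.000991). The fall from CEpiLC (37 counts) to SOX2-ON also passed the test (adjusted p = 0.0338), at a ratio of 17.4 (4.49 to 149), although SOX2-ON replicate 3 was above CEpiLC replicate 1. Of the 37 counts 26 were those of CEpiLC replicate 3, and the call was lost without that library (-2.50, adjusted p = 0.112). It was also lost without SOX2-ON replicate 1, 2 or 3 (adjusted p = 0.0923, 0.0899 and 0.0514) and with limma-voom (adjusted p = 0.0671). Without CEpiLC replicate 3, the rise in SOX2-OFF over CEpiLC was 4.45 on the log2 scale (adjusted p = 0.000175). With DESeq2 the rise did not pass the threshold (2.51, adjusted p = 0.117).

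Mesp2 (chr7:79810727-79813431), the paralog of Mesp1 that sets the anterior border of the next somite, was low in every group, with 2 to 17 counts a library. It was at 0.31, 0.28 and 0.88 TPM in EpiLC and at 0.31, 0.23 and 0.2 TPM in CEpiLC. In SOX2-OFF it was at 0.58, 0.52 and 0.95 TPM, and in SOX2-ON at 0.81, 0.87 and 1.07 TPM. It was the only one of the 9 genes tested to be higher in SOX2-ON than in CEpiLC (1.76 ± 0.46, adjusted p = 0.00554), with all 3 SOX2-ON libraries above all 3 of CEpiLC. It was also called higher in SOX2-OFF than in CEpiLC (1.34 ± 0.50, adjusted p = 0.0387), a call lost under 11 of the 22 other settings that tested it, with adjusted p up to 0.129. Single libraries whose removal ended it were CEpiLC replicates 1, 2 and 3, SOX2-OFF replicates 1 and 3, and SOX2-ON replicate 2. Against EpiLC neither TetON group passed the test (adjusted p = 0.0639 for SOX2-ON and 0.308 for SOX2-OFF), but both did without EpiLC replicate 3, with adjusted p = 0.00698 (a log2 fold change of 1.58) and 0.0411. The Mesp pair thus went opposite ways in SOX2-ON against CEpiLC, each by its own test, with the fall of Mesp1 resting on the libraries named above, and the pair was not tested against each other.

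Ripply2 (chr9:87015537-87020441), a co-repressor that ends Mesp2 expression at the somite border, was at or under 3 counts in all 12 libraries, with 0 counts in all 3 of SOX2-OFF and 0 to 1.43 TPM in the others. It did not pass the filter on low counts and was not tested. At this depth no difference in Ripply2 was detectable.

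Meox1 (chr11:101877510-101894354), a homeobox factor of the formed somite, was at 0.22, 0.19 and 0.48 TPM in EpiLC and at 0.66, 0.59 and 0.69 TPM in CEpiLC, from 20, 12 and 8 counts. In SOX2-OFF it was at 0.11, 0 and 0 TPM, and in SOX2-ON it was listed at 0 in all libraries. Its levels thus separated the lines, with 2 counts in the 6 TetON libraries together. Meox1 was at least 4.21-fold lower in SOX2-ON than in CEpiLC (adjusted p = 0.000248) and at least 1.92-fold lower than in EpiLC (adjusted p = 0.00265). With 2 counts in SOX2-OFF, CEpiLC was 16.0-fold (4.16 to 137) and EpiLC 6.85-fold (1.61 to 61.4) above it (adjusted p = 0.00162 and 0.0227). The rise from EpiLC to CEpiLC did not pass the test (1.19, adjusted p = 0.0838), although the groups did not overlap. Meox1 lies on chromosome 11, whose genes as a whole were lower in TetON libraries, with a median log2 difference of -0.52 over 678 genes. With each chromosome's shift removed, the call in SOX2-OFF against EpiLC was lost (adjusted p = 0.0614) and the others were kept. That call was also lost without EpiLC replicate 3 (adjusted p = 0.0701), without SOX2-OFF replicate 2 or 3 (0.0884 and 0.0576) and with DESeq2 (0.0516). The feeder markers Thy1 and Acta2 were lower in the same libraries, and their part in the Meox1 values was not tested. Of its tested neighbours Etv4 and Dusp3, neither passed the test in SOX2-OFF against CEpiLC, and Dusp3 was called lower in SOX2-ON (-0.31, adjusted p = 0.00485).

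Foxc1 (chr13:31806646-31810635), a forkhead factor of presomitic and paraxial mesoderm that is needed for segmentation, was at 0.52, 0.58 and 1.13 TPM in EpiLC. In CEpiLC it was at 3.18, 5.6 and 23.2 TPM, and in SOX2-OFF at 4.21, 3.69 and 11.4 TPM. In SOX2-ON it was at 0.95, 0.6 and 1.01 TPM, inside the EpiLC range. Foxc1 rose in CEpiLC against EpiLC (3.86 ± 0.75, adjusted p = 0.00118) and fell in SOX2-ON against CEpiLC (-3.63 ± 0.73, adjusted p = 0.00093). Within the TetON line it was lower in SOX2-ON than in SOX2-OFF (-2.93 ± 0.74, adjusted p = 0.00938), a call lost with limma-voom (adjusted p = 0.0635). SOX2-OFF and CEpiLC overlapped and did not pass the test (-0.69, adjusted p = 0.372).

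Pcdh8 (chr14:79766772-79771312), a protocadherin of the presomitic mesoderm that acts in cell adhesion, was at 1.57, 0.74 and 1.45 TPM in EpiLC and at 7.03, 4.31 and 3.27 TPM in CEpiLC. In SOX2-OFF it was at 12.6, 9.87 and 10.3 TPM, and in SOX2-ON at 1.63, 1.53 and 1.04 TPM. SOX2-OFF lay above CEpiLC, CEpiLC above the remaining groups, and SOX2-ON overlapped EpiLC. The steps between groups that did not overlap passed the test: 1.97 ± 0.31 for CEpiLC against EpiLC (adjusted p = 0.000222), 1.13 ± 0.27 for SOX2-OFF against CEpiLC (adjusted p = 0.00332), -1.85 ± 0.30 for SOX2-ON against CEpiLC (adjusted p = 0.000183), and -2.98 ± 0.30 for SOX2-ON against SOX2-OFF (adjusted p = 1.15e-05). SOX2-ON against EpiLC did not pass (0.13, adjusted p = 0.770). With Mesp1, it was 1 of 2 genes for which the rise from CEpiLC to SOX2-OFF also passed a threshold of 0.01.

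Aplnr (chr2:85136360-85139923), the apelin receptor, a G protein-coupled receptor of migrating mesoderm, was at 0.26, 0.17 and 0.08 TPM in EpiLC. In CEpiLC it was at 20.4, 56.5 and 66.1 TPM, in SOX2-OFF at 17.9, 24.3 and 29.7 TPM, and in SOX2-ON at 0.48, 0.32 and 0.46 TPM. It rose in CEpiLC against EpiLC (7.98 ± 0.56, adjusted p = 2.68e-07) and fell in SOX2-ON against CEpiLC (-6.84 ± 0.50, adjusted p = 2.21e-07). Within the TetON line it was lower in SOX2-ON than in SOX2-OFF (-5.87 ± 0.51, adjusted p = 3.76e-06). All SOX2-ON libraries were still above EpiLC, a difference that did not pass the test (1.13, adjusted p = 0.367). In SOX2-OFF against CEpiLC it was called lower (-0.97 ± 0.32, adjusted p = 0.0235), with overlapping groups, a call lost without CEpiLC replicate 2 or 3 or without SOX2-OFF replicate 1 or 2 (adjusted p of 0.0605 to 0.104). That call was also lost with DESeq2, with limma-voom and in a fit of the 6 libraries compared (adjusted p = 0.0807, 0.0954 and 0.0722).

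Rspo3 (chr10:29453106-29535867), a secreted R-spondin that strengthens WNT signalling by keeping its receptors at the surface, was at 0.85, 0.7 and 1.13 TPM in EpiLC. In CEpiLC it was at 47.3, 69.7 and 148 TPM, and in SOX2-OFF at 32.7, 40.5 and 53.3 TPM. In SOX2-ON it was at 5.34, 7.4 and 6.74 TPM. Rspo3 was the only gene of the 9 tested that was called higher in SOX2-ON than in EpiLC (2.85 ± 0.56, adjusted p = 0.000717), and its SOX2-ON libraries lay apart from both EpiLC and the other CHIR99021 groups. It was lower in SOX2-ON than in CEpiLC (-3.79 ± 0.37, adjusted p = 2.52e-06) and, within the TetON line, than in SOX2-OFF (-2.75 ± 0.37, adjusted p = 0.000122). It was called lower in SOX2-OFF than in CEpiLC (-1.04 ± 0.32, adjusted p = 0.0161), with overlapping groups, a call lost without CEpiLC replicate 3 or without SOX2-OFF replicate 1 or 2 (adjusted p of 0.0519 to 0.0776). That call was also lost in a fit of the 6 libraries compared (adjusted p = 0.0567).

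Counted together, 9 of the 10 genes passed the filter on low counts, and 5 of them (Msgn1, Tbx6, Mesp1, Mesp2 and Meox1) passed only through the groups in which they were high. The counts below therefore describe the genes and are not further evidence. In CEpiLC against EpiLC, 7 were called, each of them higher, where 42.2% of all 14196 genes tested were called, 22.1% higher and 20.1% lower. In SOX2-ON against CEpiLC, 9 were called (56.5% of all genes tested), 8 lower (28.6%) and 1 higher (27.9%). In SOX2-ON against SOX2-OFF, within the TetON line, 7 were called (28.8% of all genes tested), each of them lower (14.1%, beside 14.8% higher). In SOX2-OFF against EpiLC, 8 were called (62.1% of all genes tested), 7 higher (31.5%) and 1 lower (30.6%). In SOX2-ON against EpiLC, 2 were called (59.8% of all genes tested), Rspo3 higher (30.7%) and Meox1 lower (29.1%). The median log2 fold change of the 9 genes was 6.64 in CEpiLC against EpiLC and -4.14 in SOX2-ON against CEpiLC, beside 0.01 and -0.01 over all genes tested. With genes at the floor set to the smallest change that the floor allows, these medians were 3.86 and -3.63. Comparisons that share EpiLC or CEpiLC libraries are not independent of each other.

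**Figure D2:**
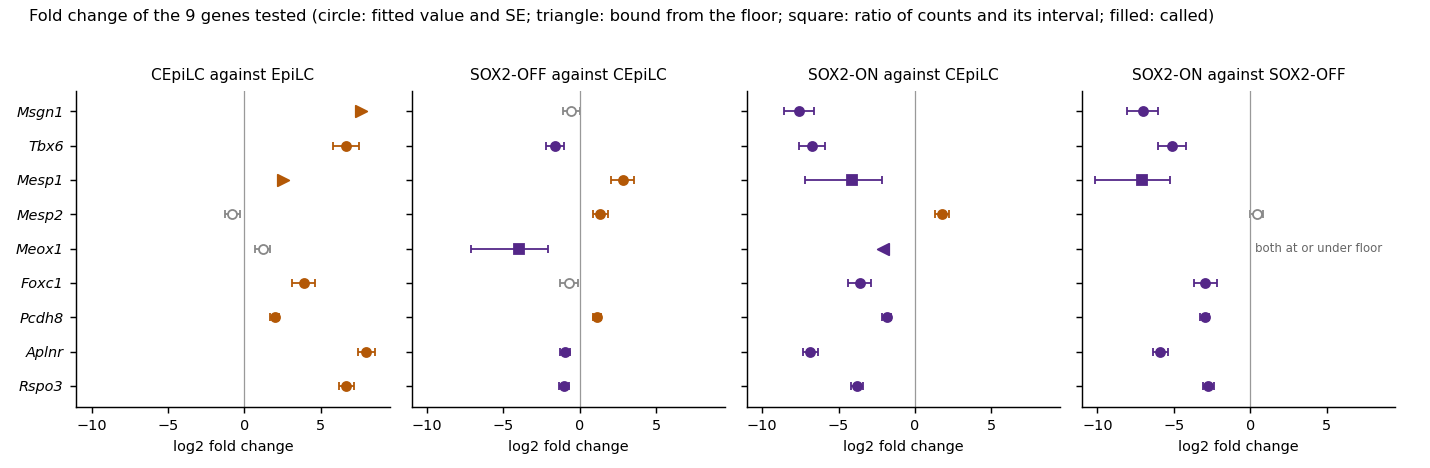
Log2 fold change of the 9 genes tested in 4 comparisons. Circles are fitted values with SE bars, triangles are the smallest change that the floor of 3 counts a library allows against a group with 0 counts, squares are ratios of summed counts with a 95% interval of counting error where the lower group held 2 counts, filled symbols passed an adjusted p of 0.05, and colours show the direction. All values but that of Mesp2 lie left of 0 in SOX2-ON against CEpiLC, and the signs are mixed in SOX2-OFF against CEpiLC.

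SOX2-OFF against CEpiLC, with 7 genes called (48.5% of all genes tested), was mixed: 3 genes were called higher (Mesp1, Mesp2 and Pcdh8; 23.6% of all genes tested) and 4 lower (Tbx6, Meox1, Aplnr and Rspo3; 24.9%), with a median log2 fold change of -0.69. This is also the comparison that depended most on single libraries. Without CEpiLC replicate 3, 3 of the 7 calls were left, namely Mesp1, Meox1 and Pcdh8, and the values of Msgn1 (0.60) and Foxc1 (0.56) changed sign, neither being called. Without SOX2-OFF replicate 1 the count was also 3, and without SOX2-OFF replicate 2 it was 4. Without replicate 3 of every group, a setting chosen after the data were seen, the count was 4, with Rspo3 the fourth.

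**Figure D3:**
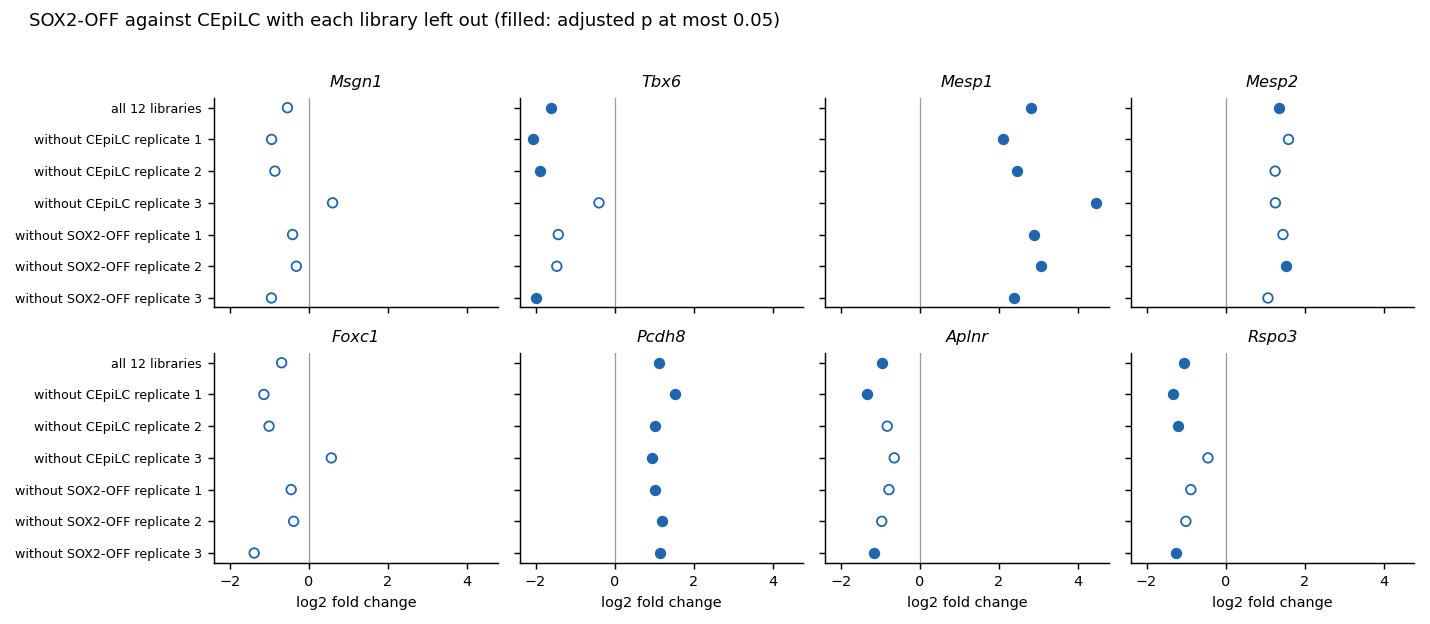
Log2 fold change in SOX2-OFF against CEpiLC for 8 genes, from all 12 libraries and with each of the 6 libraries compared left out. Filled points passed an adjusted p of 0.05. Mesp1 and Pcdh8 stay to the right of 0 and filled throughout, whereas Tbx6, Aplnr and Rspo3 lose their call and Msgn1 and Foxc1 change side without CEpiLC replicate 3.

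The replicates of CEpiLC differed widely in these genes. Replicate 3, the shallowest library, was the highest in 7 of the 10 genes, where 31.1% of all genes tested were highest in that library. Its level over the mean of the other replicates was 8.92-fold for Mesp1, 5.28-fold for Foxc1, 5.00-fold for Tbx6, 4.56-fold for Msgn1, 2.53-fold for Rspo3 and 1.72-fold for Aplnr. Pcdh8 went the other way, at 0.577-fold. In SOX2-OFF, replicate 3 was again the highest in 7 of 10 genes (28.5% of all genes tested), at 2.89-fold for Foxc1, 1.98-fold for Mesp1 and 1.91-fold for both Msgn1 and Tbx6. In CEpiLC the same library held the highest summed level of the Notch and clock genes, 665 TPM against 318 and 352 TPM, with Dll1 at 109.8 TPM against 21.0 and 32.8 TPM and Hes7 at 115 TPM against 42.1 and 32.3 TPM. Aldh1a2, the enzyme that makes retinoic acid in somitic mesoderm, was at 104 TPM there and at 11.2 and 16.3 TPM in the other replicates. The labels give no batch for these libraries. The summed feeder markers were 104 TPM there against 97.3 and 77.0 TPM, and without Thy1 and Acta2 they were 41.9 TPM against 21.7 and 25.0 TPM.

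Of 13 genes listed as inputs of the presomitic mesoderm, 12 were called higher in CEpiLC against EpiLC (22.1% of all genes tested). All 13 were called lower in SOX2-ON against CEpiLC (28.6%). Whether each of them acts before Msgn1 and Tbx6 was not tested. This list and the others were chosen with earlier results of these data known, so their counts are descriptions and not further evidence. Calls of TetON against wild-type groups, for the lists and for neighbouring genes, are from the fit with shifts of whole chromosomes left in. The largest median log2 differences of TetON from wild-type libraries were -0.52 on chromosome 11, 0.58 on chromosome 6 and 0.61 on chromosome 8. Their part in the calls of listed genes and neighbours was not tested. Brachyury, T, the streak factor, was at 711 ± 215 TPM in CEpiLC, 809 ± 19.3 in SOX2-OFF, 152 ± 17.9 in SOX2-ON and 0.55 ± 0.12 in EpiLC (n = 3). T and Msgn1 therefore differed in SOX2-ON, where T was at 138 TPM or more in every library and Msgn1 at or below 1.49 TPM. Wnt3a, the WNT ligand of the streak, was at 58.6 ± 15.1 TPM in CEpiLC, against 10.7 ± 1.91 TPM in SOX2-OFF and 0.90 ± 0.22 TPM in SOX2-ON. Fgf8, a ligand that keeps presomitic mesoderm immature, was at 62.1 ± 23.1, 26.3 ± 6.84 and 3.94 ± 1.22 TPM in the same order. In SOX2-OFF against CEpiLC, 8 of the 13 were called, each of them lower (24.9% of all genes tested), with Cdx4 and Cdx2 at -3.12 and -2.79 on the log2 scale (adjusted p = 5.45e-05 and 7.34e-07), while T and Snai1 did not pass the test (adjusted p = 0.335 and 0.627). Cdx2 and Cdx4 were the 2 of the 13 called higher in SOX2-ON than in SOX2-OFF (14.8% of all genes tested), where 10 were called lower (14.1%).

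Of 17 Notch and clock genes, 16 were tested. In CEpiLC against EpiLC 7 were called higher and 1 lower (22.1 and 20.1% of all genes tested), and in SOX2-OFF against CEpiLC 9 lower and 1 higher (24.9 and 23.6%). Hes7, a clock repressor of the presomitic mesoderm, was at 63.2 ± 45.2 TPM in CEpiLC and 4.42 ± 2.34 in SOX2-OFF, lower by the test (-3.86, adjusted p = 5.18e-05), where Msgn1 did not pass the test. Dll3, a Notch ligand of presomitic mesoderm, was at 95.1 ± 42.9 TPM in CEpiLC, 49.8 ± 11.4 in SOX2-OFF, 6.33 ± 0.80 in SOX2-ON and 11.2 ± 0.61 in EpiLC. Lfng, which modifies Notch in a cyclic way, did not pass the test in any of these comparisons. In SOX2-ON against CEpiLC 7 were called lower and 5 higher (28.6 and 27.9% of all genes tested), the latter including Jag1 (1.08, adjusted p = 0.000385) and Hes1 (0.80, adjusted p = 0.00262).

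Genes of the boundary and of the formed somite were mostly low. Of 9 genes of somite polarity and boundary 6 were tested, and in SOX2-OFF against CEpiLC their smallest adjusted p was 0.119, for Cdh11, a cadherin of mesenchyme. Of 16 genes of the somite and its derivatives 8 were tested, and Pax1, Pax7, Pax9, Nkx3-2, Myf5 and Myod1 were below 1 TPM in all 12 libraries. Fst, an activin antagonist, was at 587 ± 25.3 TPM in CEpiLC against 5.66 ± 1.70 in EpiLC (6.66 ± 0.16, adjusted p = 1.7e-11), and at 410 ± 28.2 in SOX2-OFF and 129 ± 7.63 in SOX2-ON. Pdgfra, a growth factor receptor of paraxial mesoderm and of extraembryonic endoderm, was at 9.01 ± 7.38 TPM in CEpiLC and 27.9 ± 2.75 in SOX2-OFF (1.71, adjusted p = 0.00737), beside the endoderm markers given above. In SOX2-ON it was at 11.2, 15.5 and 28.6 TPM, a range that overlapped both CEpiLC and SOX2-OFF. Pax3 was called higher in SOX2-ON than in CEpiLC (3.89, adjusted p = 1.84e-05), at 1.39 ± 0.63 TPM; it is expressed in somites and in the dorsal neural tube alike, and the 7 neural markers summed to 103 to 128 TPM in SOX2-ON and to 6.62 to 9.74 in CEpiLC. Most of the SOX2-ON sum was Sox21, a SOXB2 factor, at 93.6 to 116 TPM in SOX2-ON and 0.31 to 0.8 TPM in CEpiLC. Without it, a choice also made after the values were seen, the sums were 9.05 to 12.3 and 6.09 to 9.43 TPM, which overlapped. Of the 6 neural markers tested, Sox21, Nkx6-1, Neurog2 and Pax6 were called higher in SOX2-ON than in CEpiLC, and Sox1 and Irx3 did not pass the test. Of the 5 genes of retinoic acid turnover 4 were tested, and all 4 were called lower in SOX2-ON than in CEpiLC (28.6% of all genes tested). These calls include any shift of the gene's chromosome between the lines, as described above. Cyp26a1, which degrades retinoic acid, was called higher in SOX2-OFF than in CEpiLC (3.22, adjusted p = 0.00111), at 37.2 ± 14.6 against 4.72 ± 5.23 TPM, whereas Aldh1a2 was called lower (-2.68, adjusted p = 0.00554).

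Of the 2 ligands of Aplnr, Apln moved in the same directions as the receptor, and Apela moved the other way in SOX2-ON against CEpiLC. Apln, or apelin, was at 8.09, 8.92 and 15.5 TPM in EpiLC and at 94.7, 107 and 59.1 TPM in CEpiLC, and was called higher there (3.04, adjusted p = 1.45e-06). In SOX2-OFF it was called lower than in CEpiLC (-1.76, adjusted p = 6.15e-05). In SOX2-ON it was at 11.7, 11.8 and 11.8 TPM, and its fall from CEpiLC passed the test (-2.93, adjusted p = 1.02e-06). Apela was at 86.6, 80.4 and 33.3 TPM in CEpiLC and at 174, 192 and 169 TPM in SOX2-ON, a rise of 1.36 ± 0.27 (adjusted p = 0.000807) in the group where the receptor was below 0.5 TPM. Both ligands were lowest in CEpiLC replicate 3, in which Aplnr was highest. Among the partners of Rspo3, Lgr4, a receptor of R-spondins, was called lower in CEpiLC than in EpiLC (-0.65, adjusted p = 0.00077) and higher in SOX2-ON than in CEpiLC (0.84, adjusted p = 5.05e-05), and Znrf3, a ligase that R-spondins hold off the WNT receptors, was called in the opposite directions (1.13 and -0.94, adjusted p = 5.22e-07 and 1.32e-06). Rspo1, another R-spondin, was at 13.2 ± 3.19 TPM in EpiLC and 12.7 ± 4.86 in CEpiLC, and did not pass the test there (adjusted p = 0.977). Of the 10 partners, 4 were called higher and 2 lower in CEpiLC against EpiLC (22.1 and 20.1% of all genes tested). Of the 7 other delta protocadherins, 5 were called lower in SOX2-ON than in CEpiLC (28.6% of all genes tested) and Pcdh17 was called higher (2.58, adjusted p = 0.00283). Pcdh17, the nearest tested gene on that side of Pcdh8, lies 4672251 bp away on chromosome 14 and went the other way.

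**Figure D4:**
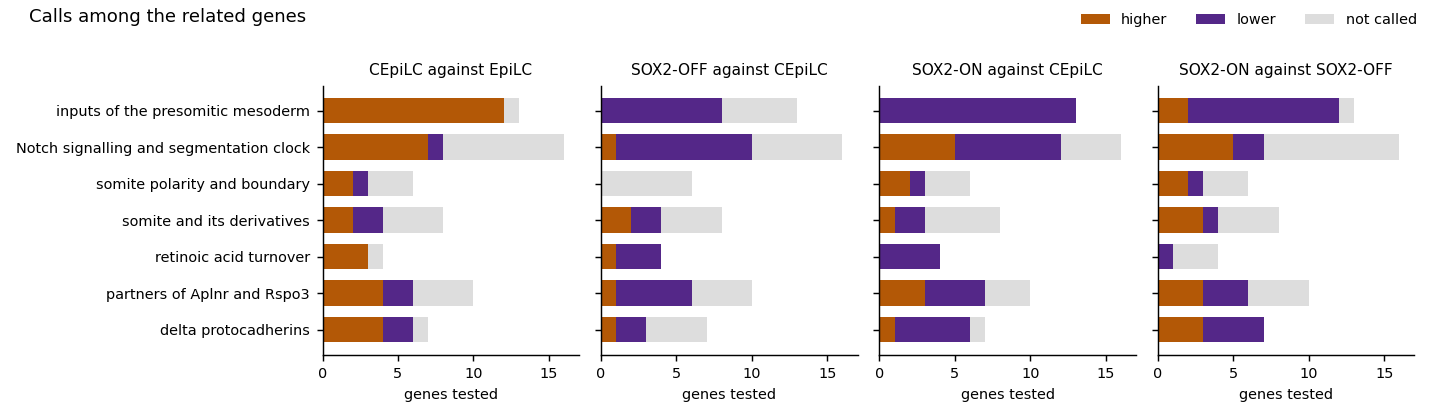
Number of genes tested in 7 lists around the 10 genes that were called higher, lower or not called at an adjusted p of 0.05, in 4 comparisons. The inputs of the presomitic mesoderm are nearly all higher in CEpiLC against EpiLC (12 of 13) and all lower in SOX2-ON against CEpiLC, whereas the genes of somite polarity and of the somite are called in both directions or not at all.

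Neighbouring genes on the chromosome were called in both directions. Of 18 tested neighbours that are not among the 10 genes, 2 were called in SOX2-OFF against CEpiLC, where 48.5% of all genes tested were called, and 5 were called higher and 3 lower in CEpiLC against EpiLC (22.1 and 20.1%). In SOX2-ON against CEpiLC 8 were called lower and 3 higher (28.6 and 27.9%). Among the former were both neighbours of Tbx6, Ypel3 at 973 bp (-1.22, adjusted p = 0.000572) and Ppp4c at 318 bp (-0.31, adjusted p = 0.00597). Neither passed the test in CEpiLC against EpiLC, where Tbx6 rose (adjusted p = 0.208 and 0.0821). Lrrc55, which lies 48144 bp from Aplnr, had 15 to 17 counts a library in CEpiLC and 0 in all SOX2-ON libraries, at least 5.74-fold lower (adjusted p = 0.000101), but, unlike Aplnr, did not pass the test between CEpiLC and EpiLC (adjusted p = 0.420). Foxf2, a gene of lateral mesoderm 175240 bp before Foxc1, had 2 counts in CEpiLC and 44 in SOX2-OFF, a ratio of 27.4 (7.16 to 234, adjusted p = 0.000826), where Foxc1 was not called.

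Across the 12 libraries, Msgn1, Tbx6, Aplnr, Rspo3 and Foxc1 had the profiles most alike. Pearson's r of log2 CPM (counts scaled by library size, which compares 1 gene across libraries) was 0.984 for Msgn1 with Aplnr, 0.979 for Msgn1 with Tbx6, 0.956 for Tbx6 with Foxc1 and 0.892 for Rspo3 with Foxc1. Libraries of a group share their treatment and line, so these values describe the groups more than the libraries. Over the 9 libraries with CHIR99021, the same pairs were at 0.976, 0.983, 0.952 and 0.942. Mesp1 was less alike (r of 0.753 to 0.856 with these 5), and Mesp2 stood apart, with r of -0.452 to -0.206 with the 5 and -0.00668 with Mesp1. Mesp2 and Meox1, both of few counts, were at -0.742. Over all genes tested, those most like Msgn1 were Pcdh7, Aplnr and Pgr (r of 0.987, 0.984 and 0.982), those most like Tbx6 were Arl4d, Skap1 and Hadha, and those most like Rspo3 were Cd36, Tmem260 and Hoxb1. Only 4 of the 27 such genes named for the 9 genes remained among the 3 most alike when the 9 libraries with CHIR99021 were used.

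**Figure D5:**
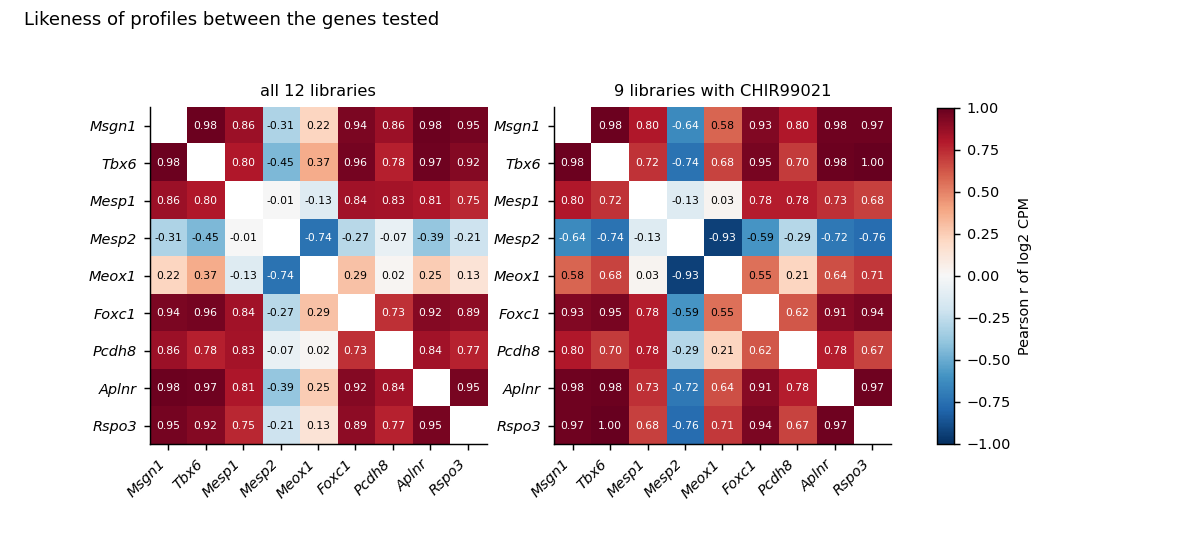
Pearson's r of log2 CPM between the 9 genes tested, over all 12 libraries (left) and over the 9 libraries with CHIR99021 (right). Msgn1, Tbx6, Foxc1, Aplnr and Rspo3 form a block of high values in both, and Mesp2 is below 0 with every other gene.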

How the data were processed

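Polyadenylated RNA of 12 mouse samples was read from 1 end, with strand kept, at 76 bp. Adapters were removed by the authors (cutadapt 1.16), and RSEM 1.3.0 with STAR 2.5.2a then quantified RefSeq genes on mm10, using strand. The table the authors deposited holds an expected count per gene and library, an estimate that is not whole in 2.59 to 3.43% of values. The deposited TPM values, scaled by RSEM per transcript length and library, were used only as levels. Replicates were not pooled, and no column was left unused.

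Expected counts were rounded. Of 24736 genes, 14196 passed filterByExpr and were tested with edgeR's quasi-likelihood test (edgeR 4.0.16, R 4.3.3, TMM, all 12 libraries, no covariates), with Benjamini-Hochberg adjustment over all of them. The floor means at most 3 counts in each library of a group. A fold against a group with 0 counts is a bound from 3 counts per library, and against a group of 1 to 3 counts it is the ratio of summed counts with its 95% exact binomial interval. Floors and intervals cover counting error only, since reads carry no molecular identifiers. The labels call the libraries of a group biological replicates, and the study's methods speak of independent experiments. Positions and promoters are those of RefSeq on GRCm38.p6, the assembly called mm10. The genes named are Sox2, the 10 genes, those of the lists, their nearest tested neighbours and, for each, the 3 tested genes with the highest Pearson's r. The 10 genes and all lists were chosen with earlier results of these data known. The fits were tested on simulated data.

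Replicate pairs differed beyond sampling noise (chi-square per degree of freedom 7.54 to 42.6). Same-numbered EpiLC and CEpiLC libraries deviated together (r = 0.120, 0.132 and 0.103), the only comparison with every r above 0.1. For SOX2-OFF with CEpiLC the values were 0.053, 0.179 and 0.173, and for SOX2-ON with CEpiLC 0.064, 0.201 and 0.163. Values this low do not settle which libraries are paired. The results given are from the fit without the block, and the block was an alternative. The alternatives were RLE or no scaling, 2 other filters, DESeq2 1.42.0, limma-voom (limma 3.58.1), a fit of the 6 libraries compared, the replicate block, a threshold of 0.01, removal of each chromosome's shift, removal of Rn45s, each library left out and, chosen after the data were seen, replicate 3 of every group left out.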

Additional observations from a re-analysis of the deposited data

How the results depend on the processing

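In CEpiLC against EpiLC, SOX2-ON against CEpiLC, SOX2-ON against SOX2-OFF and SOX2-OFF against EpiLC, the number of the genes called stayed within 1.5 times its value under all 25 other settings. In SOX2-OFF against CEpiLC the 7 calls became 3 with DESeq2, with a fit of only the 6 libraries compared and at a threshold of 0.01, and 4 without replicate 3 of every group. Leaving out single libraries gave 3 to 7 there, with 3 without CEpiLC replicate 3 or SOX2-OFF replicate 1 and 4 without SOX2-OFF replicate 2. In SOX2-ON against EpiLC the 2 calls became 1 with a filter of at least 1 CPM in 3 libraries, 1 in the fit of 6 libraries with the replicate block, and 4 without replicate 3 of every group. In the first 2 of these settings Meox1 was not tested. Values that changed sign, none of them called, were those of Msgn1 (0.60) and Foxc1 (0.56) in SOX2-OFF against CEpiLC without CEpiLC replicate 3, with ranges of -0.95 to 0.60 and -1.39 to 0.56 over single libraries left out, and of Msgn1 (0.19) without replicate 3 of every group. In SOX2-ON against EpiLC they were those of Pcdh8 without EpiLC replicate 2 (-0.16) or SOX2-ON replicate 1 (-0.02; range -0.16 to 0.36) and of Tbx6 without SOX2-ON replicate 1 (0.10; range -0.33 to 0.10). The cause of these changes was not tested. With the replicate block in the fit of all 12 libraries, 53 of 54 values kept their side of the threshold, the exception being Mesp2 in SOX2-ON against EpiLC (0.98, adjusted p = 0.0402). That difference also passed with limma-voom (adjusted p = 0.0313), without EpiLC replicate 3 (0.00698) and without replicate 3 of every group (0.0194). Other calls gained against EpiLC were those of Msgn1 in SOX2-ON with DESeq2 (adjusted p = 0.0176) and without replicate 3 of every group (0.0438), Aplnr in SOX2-ON in the fit of 6 libraries (0.0437), Mesp2 in SOX2-OFF without EpiLC replicate 3 (0.0411) and Meox1 in CEpiLC with limma-voom (0.0329). Calls that missed the threshold elsewhere were mostly in SOX2-OFF against CEpiLC (34 of 221 values) and otherwise of Mesp1 in CEpiLC against EpiLC (adjusted p up to 0.0573), Mesp1 in SOX2-ON against CEpiLC (up to 0.112), Meox1 in SOX2-OFF against EpiLC (up to 0.142), and Foxc1 and Tbx6 in SOX2-ON against SOX2-OFF (up to 0.0635 and 0.0675). Where a setting left only counts of 0 in both groups, as for Meox1 in SOX2-ON against SOX2-OFF without SOX2-OFF replicate 1, it gave no value. Depth limits Mesp2, Meox1 and Ripply2, with at most 20 counts a library.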

Other observations

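Markers of other kinds of mesoderm and of earlier cells were followed beside the 10 genes, with calls from edgeR's quasi-likelihood test. The summed level of 7 genes of heart mesoderm was 30.9 to 39.2 TPM in SOX2-OFF, 17.1 to 27.6 TPM in SOX2-ON and 4.78 to 8.89 TPM in CEpiLC. Gata4, which is also expressed in extraembryonic endoderm, carried the rise of both TetON groups over CEpiLC. It was at 23.5 to 29.1 TPM in SOX2-OFF, 14.4 to 25.4 TPM in SOX2-ON and 0.52 to 2.48 TPM in CEpiLC. Without it, a sum chosen after the values were seen, the levels were 5.94 to 11.6, 2.21 to 3.92 and 4.26 to 6.54 TPM in the same order. SOX2-OFF thus still lay above SOX2-ON without Gata4, and SOX2-ON lay below CEpiLC. Of the 4 heart genes tested, Gata4 and Isl1 were called higher and Mef2c lower in SOX2-OFF against CEpiLC (23.6 and 24.9% of all genes tested), and in SOX2-ON against CEpiLC Gata4 was called higher and both Isl1 and Mef2c lower (27.9 and 28.6%). Genes of axial mesoderm, 7 in all, summed to 29.2 to 37.9 TPM in SOX2-OFF and to 9.93 to 31.2 TPM in CEpiLC, ranges that overlapped, with 1 of 6 tested called higher and 2 lower (23.6 and 24.9% of all genes tested). The 8 genes of lateral mesoderm and the 5 of intermediate mesoderm summed to at most 27.7 and 18.3 TPM in any library. Genes of naive pluripotency rose in SOX2-ON against CEpiLC, with 9 of 9 called higher (27.9% of all genes tested) and sums of 335 to 430.3 TPM against 26.9 to 57.6 TPM. In SOX2-OFF against CEpiLC, 5 of the 9 were called higher and 0 lower (23.6 and 24.9% of all genes tested). The sums in SOX2-OFF, 85.0 to 140.8 TPM, also lay above those in CEpiLC. Of the 5 genes of epiblast-like cells, Fgf5, Otx2, Pou3f1 and Dnmt3b were called lower in CEpiLC than in EpiLC (20.1% of all genes tested) and Pou5f1 did not pass the test (adjusted p = 0.681), with sums of 822 to 1170.3 TPM against 2360.1 to 2778 TPM. The part of these cells in the levels of the 10 genes was not tested.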
